A study of Mus musculus with 2 samples.

Results

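The 41 genes described here are components of the Notch signalling pathway, proneural transcription factors, and the Sox, Id, E-protein and other genes that mark or regulate neural progenitors. They were chosen by name, and all 41 symbols mapped to a row of the gene tables, which list 43346 mouse genes, 21461 of them nuclear and protein-coding. The RNA came from the forebrain of newborn mice (postnatal day 0) of strain B6NCrl, with no treatment or genetic change given in the labels. There was 1 group of 2 libraries, 1 from pup 1 (replicate 1) and 1 from pup 3 (replicate 2), made from 13 pg, or 1 cell-equivalent, of RNA longer than 200 nt. Although catalogued as a single-cell assay, the material was extracted from the tissue of a single forebrain each time, so each library samples all of its cell types. Both labels carry the same donor identifier, and sex was not collected. The design contains no contrast between conditions, so the values below describe which of these genes were captured at this input and how far the pups lay apart. No test between pups was possible with 1 library each, and biological and technical spread cannot be told apart. In bulk RNA, fewer cells of a type and less RNA per cell cannot be told apart either.

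In Notch signalling, a ligand on 1 cell (Delta-like or Jagged) binds a Notch receptor on its neighbour, the receptor is cleaved, and its freed intracellular domain joins the DNA-binding protein RBPJ to switch on Hes and Hey genes. Hes and Hey repressors hold down proneural basic helix-loop-helix (bHLH) genes such as the neurogenins, and so keep radial glia, the progenitors of the forebrain, from becoming neurons. Proneural proteins act as dimers with E proteins, and Id proteins bind E proteins without binding DNA, which blocks those dimers. SoxB proteins are associated with the progenitor state, and SoxC proteins with newly formed neurons.

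The libraries held 41082811 reads in pup 1 and 29881397 in pup 3, counted as deposited expected counts. Levels are given as TPM, a level per length of transcript whose sum is equal in the 2 libraries. A gene is called found at 1 TPM or more. A count of 3 reads, the limit that a count of 0 allows, came to a median of 0.0430 TPM over the 41 genes in pup 1 and 0.0528 TPM in pup 3. These limits and all intervals cover counting error only, because PCR copies cannot be told from separate molecules without molecular identifiers. Protein-coding genes found numbered 9048 in pup 1 and 6210 in pup 3. Of the forebrain marker list, 6 of 9 genes were found in pup 1 and 3 of 9 in pup 3. The list summed to 514 TPM for pup 1 against 475 TPM for pup 3. Neurod6 supplied the largest part of each sum, 271.54 TPM for pup 1 against 455.56 TPM for pup 3. The other 5 forebrain genes with reads were each more than 2-fold higher in pup 1, so the close sums rest on Neurod6. Of 11 hindbrain and spinal genes, 0 were found in either pup. All 8 pan-neuronal and 7 astrocyte markers were found in both pups.

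Of the 41 genes, 11 were found in both pups, which is 26.8%, against 24.7% of all protein-coding genes. A further 14 reached that level only in pup 1 and 7 only in pup 3, while 9 (22.0%, against 53.6% of protein-coding genes) reached it in neither. Pup 1 thus held 25 of the 41 (61.0%, against 42.2% of protein-coding genes) and pup 3 held 18 (43.9%, against 28.9%). Among the 32 found in either pup, the share found in both was 34.4%, lower than the 53.3% among all protein-coding genes found in either. The share found in pup 3 alone was 21.9%, against 9.09% of protein-coding genes, and the share in pup 1 alone was 43.8%, against 37.6%. Most of the genes found were thus found in 1 of the animals.

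**Figure D1:**
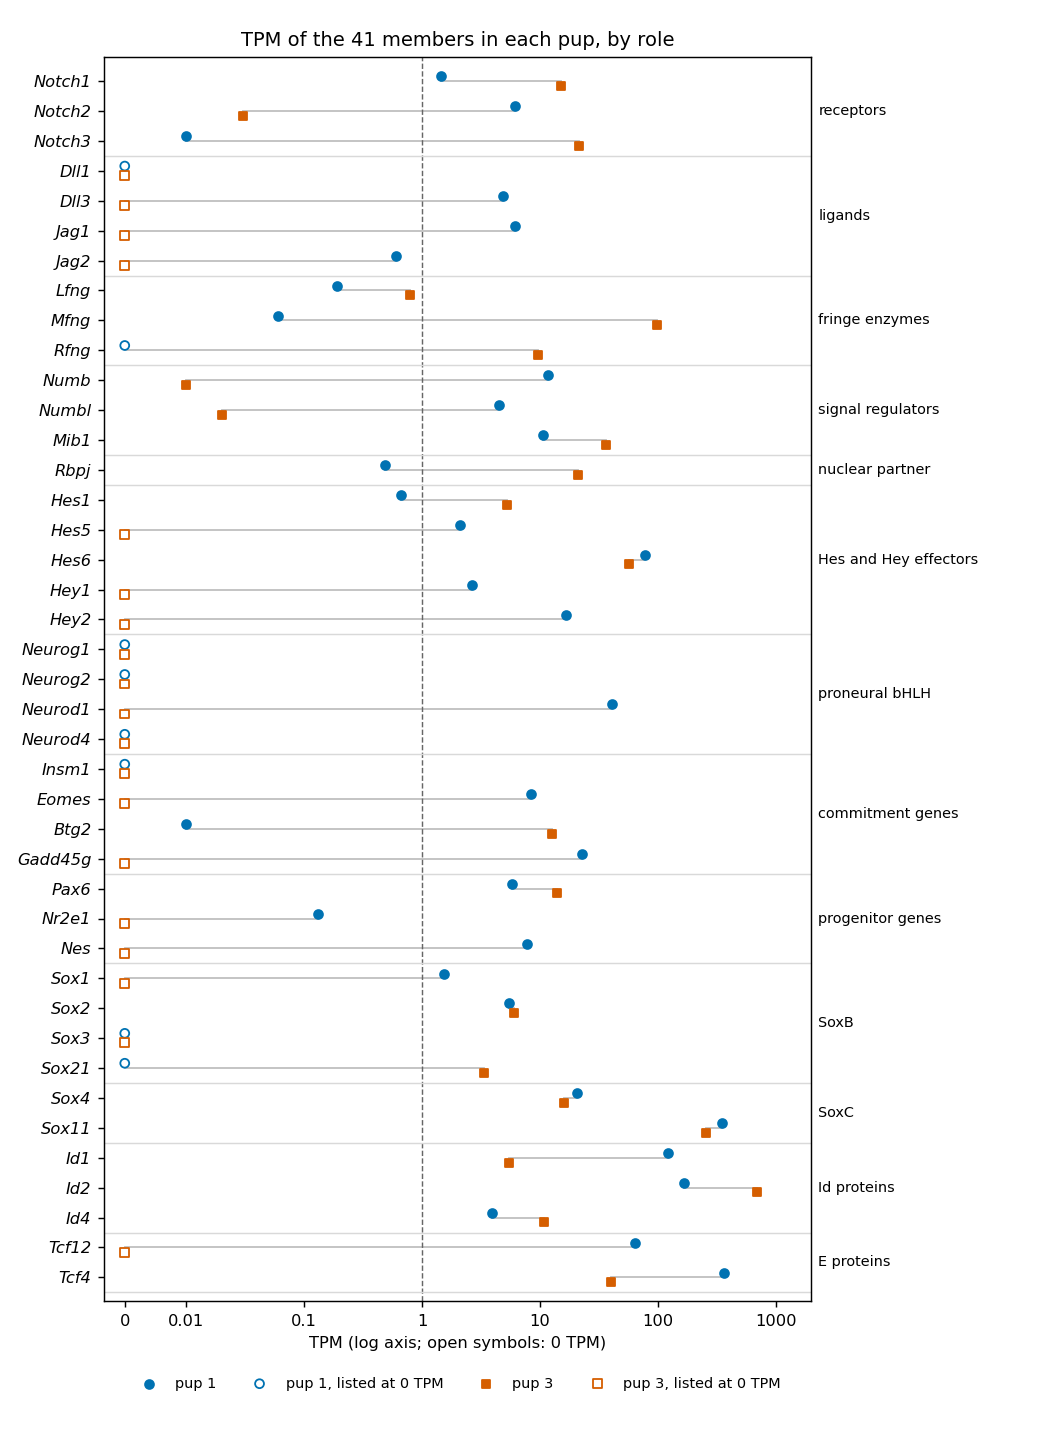
Level of each of the 41 genes in pup 1 (circles) and pup 3 (squares) in TPM on a log axis, grouped by role; open symbols at the left edge are genes listed at 0 TPM, and the dashed line is 1 TPM. Grey lines join the values of a gene, and short lines (Sox11, Hes6, Sox4, Sox2) mark genes whose pups lay close.

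The typical protein-coding gene had few or no reads in these libraries. For the 41 genes the median level, taken over the mean of the pups, was 4.82 TPM, against 0.045 TPM over all protein-coding genes. The median within a pup was 3.91 TPM in pup 1 against 0.02 TPM in pup 3, and 0.01 and 0 TPM in those pups over protein-coding genes. The summed level was close in the pups, 1333 TPM in pup 1 against 1321 TPM in pup 3. Sox11, Id2 and Tcf4 together held 66.2% of the sum in pup 1 and 74.7% in pup 3. Without these 3 genes the sums were 450.3 TPM in pup 1 against 334 TPM in pup 3. Among protein-coding genes ordered by mean level, Id2 was at rank 308, Sox11 at 471, Tcf4 at 732, Hes6 at 2159, Id1 at 2262 and Mfng at 2824.

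Each of the 3 Notch receptor genes was high in 1 pup and lower in the other. Notch1 (ENSMUSG00000026923, mm10 chromosome 2, 26457903 to 26516663), the main receptor of cortical progenitors, was at 1.46 TPM in pup 1 against 15.1 TPM in pup 3. It was the receptor found in both pups, with 364 reads in pup 1 and 3279 in pup 3, and the deposited upper credibility bound in pup 1 was 5.16 TPM. On the other strand, Gm13568 and 0610009E02Rik overlap its exons and had 30.3 and 8.06 TPM in pup 1 and 0 reads in pup 3. No source used here gives the strand setting of the counting, so reads from overlapping genes on opposite strands cannot be told apart.

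Notch2 was at 6.15 TPM in pup 1, from 1698 reads, and 0.03 TPM in pup 3, from 7 reads. Notch3 (chromosome 17, 32120820 to 32166852), known for its expression in the mural cells of blood vessels as well as in progenitors, had the opposite pattern. It was at 0.01 TPM (3 reads) in pup 1 and 21.5 TPM (3954 reads) in pup 3, a ratio of pup 3 to pup 1 of 1509 with a counting interval of 516 to 7321. Summed over the receptors, pup 1 had 7.62 TPM and pup 3 had 36.6 TPM. The 12 endothelial and mural markers summed to 83.9 TPM in pup 1 against 97.4 TPM in pup 3. Of these, 2 were found in both pups, 3 more in pup 1 and 7 in neither, with Kdr, Tie1, Tek and Kcnj8 at 0 reads in both. Pup 1 had the higher level for 5 of them and pup 3 for 2, and without Cldn5, the highest, the sums were 42.1 TPM in pup 1 against 15.2 TPM in pup 3. The pericyte marker Pdgfrb, at 26.9 TPM in pup 1 and 0 reads in pup 3, lay opposite to Notch3. The part of vascular RNA in the Notch3 value was not tested.

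Of the 4 ligand genes, 3 had reads in pup 1 and 0 had a read in pup 3. Of all 21461 protein-coding genes, 3969 had reads in pup 1 alone and 10052 had 0 reads in both, so such gaps were common. Jag1 was at 6.18 TPM in pup 1, from 904 reads, and Dll3, a divergent family member that acts inside the cell rather than as a surface ligand, was at 4.82 TPM, from 167 reads. Jag2 was lower, at 0.60 TPM from 63 reads in pup 1. With 0 reads in pup 3 these are differences of at least 164-fold for Jag1, 47.7-fold for Dll3 and 18.3-fold for Jag2, taken against 3 reads in that library. Deposited upper credibility bounds were 0.102 TPM for Jag1, 0.331 TPM for Dll3 and 0.0320 TPM for Jag2 in pup 3, so the differences for Jag1 and Dll3 may be smaller than the read counts give. Dll1, the Delta ligand of differentiating progenitors, had 0 reads in both pups, where 3 reads would be 0.103 TPM in pup 1 against 0.118 TPM in pup 3. The summed ligand level was 11.6 TPM in pup 1 against 0 TPM in pup 3.

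Fringe enzymes, which add sugars to Notch receptors and tune which ligands they answer to, lay the other way. Mfng (chromosome 15, 78755882 to 78773475) had 0.06 TPM in pup 1 against 99.0 TPM in pup 3. These came from 3 reads in pup 1 and 4048 in pup 3, so the ratio of pup 3 to pup 1 was 1546, with a counting interval of 529 to 7500. The deposited upper credibility bound for Mfng in pup 1 was 0.751 TPM. In pup 3, 99.9% of the Mfng level was assigned to the transcript Mfng-201. Rfng had 0 reads in pup 1 and 9.64 TPM in pup 3 (451 reads), at least 187-fold higher in pup 3, although its deposited upper bound in pup 1 was 0.0813 TPM. Lfng was under 1 TPM in each, at 0.19 TPM in pup 1 against 0.79 TPM in pup 3. The 3 enzymes summed to 0.25 TPM in pup 1 against 109 TPM in pup 3, a sum that is mostly Mfng.

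Among regulators of the signal, Numb and Numbl, which encode adaptor proteins that antagonise Notch, were found in pup 1 alone. Numb was at 11.6 TPM in pup 1 (1052 reads) and 0.01 TPM in pup 3 (1 read), a ratio of pup 1 to pup 3 of 898 with a counting interval of 161 to 35485. Numbl was at 4.46 TPM in pup 1 against 0.02 TPM in pup 3, again 1 read, with a ratio of 275 (interval 49.0 to 10897). In pup 3 the upper credibility bounds that the authors deposited were higher than these levels, at 1.05 TPM for Numb and 0.643 TPM for Numbl. Mib1, a ubiquitin ligase that ligand-bearing cells need to send the signal, was found in both pups, at 10.5 TPM in pup 1 against 36.4 TPM in pup 3. Its reads were closer than its TPM, 1576 in pup 1 and 2427 in pup 3, and the mean length of the transcripts assigned to it was 5752 nt in pup 1 against 2976 nt in pup 3. Mib1-204, of 2721 nt, held 56.4% of the Mib1 level in pup 1 and 96.6% in pup 3. The longer Mib1-201, of 10231 nt, was at 4.28 TPM in pup 1 against 1.24 TPM in pup 3.

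Rbpj (chromosome 5, 53466152 to 53657362), which encodes the nuclear partner of every Notch receptor, was at 0.48 TPM in pup 1 (67 reads) and 21.2 TPM in pup 3 (2604 reads). The log2 ratio of pup 1 to pup 3, taken here and throughout on TPM plus 1 and so compressed for low genes, was -3.90. A processed pseudogene, Rbpj-ps3, was given 0 reads in pup 1 and 17.3 in pup 3, and how reads of copies were split between them is uncertain.

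The Hes and Hey family holds the classical transcriptional targets of Notch. Of its 5 genes described here, 4 were found in pup 1 and 2 in pup 3. Hes6 (chromosome 1, 91411483 to 91414038), an atypical member that counteracts Hes1 and promotes neuronal differentiation, was the most abundant and the closest between pups. It was at 77.9 TPM in pup 1 against 57.2 TPM in pup 3, a mean of 67.5 ± 14.7 TPM (SD, n = 2). Its reads numbered 2550 in pup 1 and 1635 in pup 3, and Hes6-201 held 99.6% of the level in pup 1 and 99.8% in pup 3. Hes1, the oscillating repressor of progenitors, was at 0.66 TPM in pup 1 against 5.23 TPM in pup 3.

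The other effectors were found in pup 1 alone. Hey2 was at 16.7 TPM in pup 1 (1087 reads), Hey1 at 2.64 TPM (163 reads) and Hes5, the effector most used as a readout of Notch activity in radial glia, at 2.09 TPM (65 reads). Each had 0 reads in pup 3, so the level in pup 1 was at least 316-fold higher for Hey2, 23.5-fold for Hey1 and 11.5-fold for Hes5 when set against 3 reads. Deposited upper credibility bounds for pup 3 were 0.0508 TPM for Hey2, 0.389 TPM for Hey1 and 0.545 TPM for Hes5, and allow smaller differences for Hey1 and Hes5. Summed over the 5 genes, pup 1 had 100.03 TPM and pup 3 had 62.4 TPM, of which Hes6 was the largest part in each. The promoters of Hes5, Hey2 and the fringe gene Lfng are shown because, among the promoters of the 41 genes that were searched, theirs hold the RBPJ-binding letters GTGGGAA. The sequences are from RefSeq on GRCm38.p6, cover the 250 bases before the start of the gene and are written 5′ to 3′ on the strand of the gene, with the motif or its reverse complement in capitals (Hes5 at chr4:154960673-154960922, plus strand, Hey2 at chr10:30842784-30843033, minus strand, and Lfng at chr5:140607091-140607340, plus strand).
Hes5: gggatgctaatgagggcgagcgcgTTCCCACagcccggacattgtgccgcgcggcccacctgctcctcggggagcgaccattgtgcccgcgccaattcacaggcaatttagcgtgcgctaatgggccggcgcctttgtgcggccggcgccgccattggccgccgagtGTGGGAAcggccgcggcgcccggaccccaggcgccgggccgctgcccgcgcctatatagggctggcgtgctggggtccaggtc
Hey2: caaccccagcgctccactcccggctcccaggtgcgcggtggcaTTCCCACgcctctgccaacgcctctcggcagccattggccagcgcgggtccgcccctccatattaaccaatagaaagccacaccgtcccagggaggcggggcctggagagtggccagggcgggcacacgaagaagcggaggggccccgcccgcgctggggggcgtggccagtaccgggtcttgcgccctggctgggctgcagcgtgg
Lfng: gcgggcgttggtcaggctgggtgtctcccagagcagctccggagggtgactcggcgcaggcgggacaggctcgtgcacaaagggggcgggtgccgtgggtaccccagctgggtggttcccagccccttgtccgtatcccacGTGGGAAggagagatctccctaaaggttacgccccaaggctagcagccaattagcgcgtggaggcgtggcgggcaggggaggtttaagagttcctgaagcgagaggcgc
In Hes5 the motif lies at bases 83 to 77 before the start and its reverse complement TTCCCAC at bases 226 to 220. In Hey2 the reverse complement lies at bases 207 to 201, and in Lfng the motif at bases 109 to 103. RefSeq promoters were matched for 33 of the 41 genes (42 promoters). None was matched for Hes1, Hey1, Mfng, Mib1, Insm1, Sox3, Id1 or Tcf4, so these genes were not searched. Of the 42 promoters, 3 (7.14%) held the motif on either strand, those of Hes5, Hey2 and Lfng. That compares with 5.42% of all 32851 promoters searched in the same window. A match of these letters is a description of the sequence and not a bound site.

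Proneural bHLH genes were almost all missing. Neurog1, Neurog2 and Neurod4 had 0 reads in both pups, where 3 reads would be at most 0.0725 TPM in pup 1 against 0.0830 TPM in pup 3. Neurod1 (chromosome 2, 79452521 to 79456751), a neuronal differentiation factor that acts after the neurogenins, was at 40.6 TPM in pup 1, from 2831 reads, and had 0 reads in pup 3. That is at least 824-fold higher in pup 1. Both neurogenins and Neurod4 were below detection in the library that held Neurod1.

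Genes of commitment to the neuronal lineage were also each seen in 1 pup or neither. Gadd45g, a stress and cell cycle gene of newly committed precursors, was at 22.6 TPM in pup 1 (582 reads), and Eomes, which encodes the intermediate progenitor factor TBR2, was at 8.42 TPM (637 reads). Both had 0 reads in pup 3, so the differences were at least 151-fold for Gadd45g and 169-fold for Eomes against 3 reads, with deposited upper bounds of 0.237 TPM for Gadd45g and 0.120 TPM for Eomes in pup 3. Btg2, an antiproliferative gene of neurogenic divisions, was at 0.01 TPM (1 read) in pup 1 and 12.6 TPM (772 reads) in pup 3, a ratio of pup 3 to pup 1 of 884 with a counting interval of 158 to 34965. Insm1, a zinc-finger factor of delaminating progenitors, had 0 reads in both. The intermediate progenitor markers moved with Eomes and Gadd45g, which are on that list themselves along with Neurog2. Of the 7, 1 was found in both pups (14.3%, against 24.7% of all protein-coding genes), 4 others in pup 1 and 2 in neither. The sums were 209 TPM in pup 1 against 18.1 TPM in pup 3. Elavl2, the gene found in both, was the largest part of each sum, at 106.44 TPM in pup 1 against 17.98 TPM in pup 3. The pup 3 sum is thus almost wholly Elavl2. By level, the 5 genes of the list with reads were all higher in pup 1. The share of intermediate progenitors in each sample was not tested.

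Genes of the progenitor state were low in TPM terms. Pax6, a transcription factor of cortical radial glia, was found in both pups, at 5.74 TPM in pup 1 (175 reads) and 13.9 TPM in pup 3 (359 reads). Nes, which encodes the intermediate filament nestin, was at 7.77 TPM in pup 1 from 1243 reads and had 0 reads in pup 3, at least 262-fold higher in pup 1 against 3 reads, with a deposited upper bound in pup 3 of 0.121 TPM. Nr2e1, a nuclear receptor that maintains neural stem cells and is also called Tlx, had 10 reads in pup 1 (0.13 TPM) and 0 in pup 3, where the deposited upper credibility bound of 0.567 TPM lies above the level in pup 1, so no direction is given. The summed level of these 3 genes was 13.6 TPM in pup 1 against 13.9 TPM in pup 3, from Nes and Pax6 in pup 1 and Pax6 alone in pup 3. Radial glia markers were seen in both libraries, with 6 of 8 found in both pups and sums of 2212 TPM in pup 1 against 2759 TPM in pup 3. By level 6 of the 8 were higher in pup 1, and without Fabp7, the highest, the sums were 875 TPM in pup 1 against 469 TPM in pup 3. Cycling cell markers summed to 399 TPM in pup 1 against 332 TPM in pup 3, with 4 of 8 found in both pups. By level 5 of these 8 were higher in pup 1 and 3 in pup 3. Cdk1, at 113 TPM in pup 1, and Ccnb1, at 24.7 TPM, had 0 reads in pup 3. Mcm2 lay the other way, at 0.02 TPM in pup 1 against 53.85 TPM in pup 3. The Cdk1 level in pup 1 is larger than the difference between the sums.

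Sox2, the SoxB factor of neural stem cells, had the smallest difference in TPM of the genes found in both pups, at 5.42 TPM in pup 1 against 6.02 TPM in pup 3, or 5.72 ± 0.424 TPM (SD, n = 2). It had 339 reads in pup 1 and 329 in pup 3, so that after division by library size (CPM) the ratio of pup 1 to pup 3 was 0.749, farther from 1 than the 1.07 of Sox4. The other SoxB genes were each missing from at least 1 pup. Sox1 was at 1.54 TPM in pup 1 (194 reads) and 0 reads in pup 3, at least 56.3-fold higher in pup 1, while Sox21, which promotes neuronal differentiation by opposing the other SoxB proteins, had 0 reads in pup 1 and 3.37 TPM (289 reads) in pup 3, at least 110.3-fold higher in pup 3. Sox1ot, a transcript that overlaps the Sox1 gene, was present in the same library as Sox1, at 8.77 TPM in pup 1, and had 0 reads in pup 3. Sox3 had 0 reads in both pups. The SoxB sums were 6.96 TPM in pup 1 against 9.39 TPM in pup 3.

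SoxC genes were found in both pups at higher levels. Sox11 (ENSMUSG00000063632, chromosome 12, 27334264 to 27342574, a gene of 1 exon) was at 351 TPM in pup 1 against 258 TPM in pup 3, or 305 ± 65.4 TPM (SD, n = 2). With a transcript of 8311 nt, it took 76479 reads in pup 1 and 49189 in pup 3, which is 57.0% and 51.8% of all reads on the 41 genes. Sox4, its relative in migrating newborn neurons, was at 20.55 TPM in pup 1 against 16.0 TPM in pup 3, with a log2 ratio of 0.34. Gm26735, a non-coding gene on the opposite strand that overlaps Sox4, was more abundant than Sox4 itself, at 145 TPM in pup 1 against 76.0 TPM in pup 3, and reads of the pair cannot be told apart without strand. The SoxC log2 ratios, 0.44 for Sox11 and 0.34 for Sox4, were each within 2-fold.

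**Figure D2:**
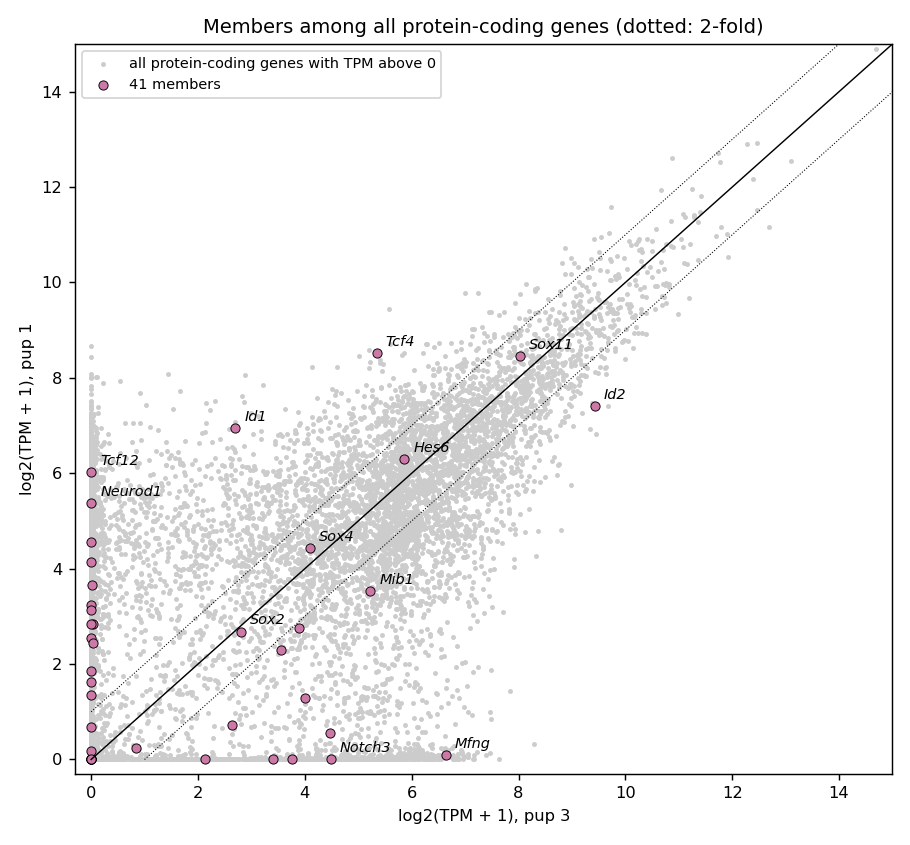
Level of the 41 genes (outlined points) and of all protein-coding genes above 0 TPM (grey) as log2(TPM + 1), pup 1 on the vertical axis and pup 3 on the horizontal axis; the solid line is equality and the dotted lines are 2-fold. Sox11, Hes6, Sox4 and Sox2 lie between the dotted lines, whereas genes along the left and lower edges had no or almost no reads in 1 pup.

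All 3 Id genes were found in both pups, and each differed by more than 2-fold. Id2 (chromosome 12, 25093799 to 25097140) had the highest mean of the 41, at 168 TPM in pup 1 against 689 TPM in pup 3, with a log2 ratio of -2.03. Id1, a target of BMP signalling that is also abundant in endothelial cells, was at 123 TPM in pup 1 against 5.48 TPM in pup 3, from 2722 and 106 reads in those pups, with a log2 ratio of 4.26. Id4 was at 3.91 TPM in pup 1 against 10.75 TPM in pup 3, with a log2 ratio of -1.26. Id1 thus stood higher in pup 1 and the others in pup 3, and the Id sums were 295 TPM in pup 1 against 705 TPM in pup 3. The part of vascular RNA in the Id1 value was not tested.

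E proteins, the partners that Id proteins bind, were both higher in pup 1. Tcf4 (chromosome 18, 69343356 to 69689079), the main E protein of the brain and also called E2-2, was at 364 TPM in pup 1 against 39.7 TPM in pup 3, with a log2 ratio of 3.16. In reads it had 26903 in pup 1 and 4508 in pup 3, which is a ratio of pup 1 to pup 3 of 4.34 after division by library size (CPM), against 9.17 in TPM. Its transcripts differed between the pups as well. The short Tcf4-204, of 1815 nt, led in pup 1 with 173 TPM (47.4% of the gene), against 10.2 TPM (25.7%) in pup 3. The long Tcf4-202, of 7147 nt, was at 34.8 TPM (9.56%) in pup 1, against 21.6 TPM (54.4%) in pup 3, where it led. Tcf4-205 was at 120 TPM in pup 1 and listed at 0 in pup 3.

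Tcf12, which encodes the E protein HEB, was at 64.3 TPM in pup 1, from 4000 reads, and had 0 reads in pup 3. That is at least 1178-fold higher in pup 1, although the deposited upper credibility bound in pup 3 was 1.12 TPM. In pup 1 the highest transcript, Tcf12-220 at 21.2 TPM, is annotated as a target of nonsense-mediated decay and held 32.9% of the gene. Protein-coding transcripts held the other 67.1%, led by Tcf12-215 at 19.8 TPM and Tcf12-210 at 17.5 TPM. The E-protein sums were 428 TPM in pup 1 against 39.7 TPM in pup 3.

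**Figure D3:**
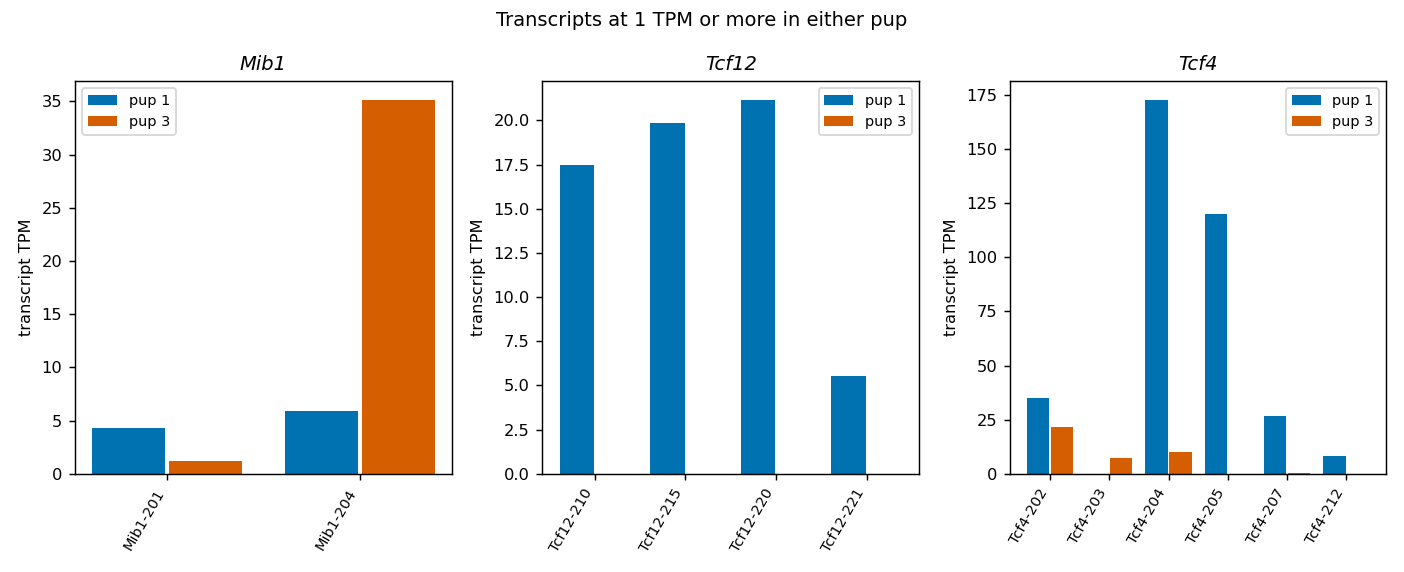
Level in TPM of each transcript of Mib1, Tcf12 and Tcf4 at 1 TPM or more in either pup, with pup 1 on the left of each pair of bars and pup 3 on the right, and a separate axis for each gene. Mib1-204 led in both pups, Tcf12 had bars in pup 1 alone, and the leading Tcf4 transcript was Tcf4-204 in pup 1 and Tcf4-202 in pup 3.

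Of the 41 genes, 35 had reads in at least 1 pup, and their differences ran both ways. A total of 16 (45.7%) were more than 2-fold higher in pup 1, against 42.8% of the 11409 protein-coding genes with reads. In the other direction, 12 (34.3%) were more than 2-fold higher in pup 3, against 20% of those genes, and 7 lay within 2-fold. These were Sox2, Sox4, Sox11 and Hes6, together with Jag2, Lfng and Nr2e1, whose levels under 1 TPM are compressed by the 1 added to them. The median log2 ratio was 0.44, against 0.49 over the protein-coding genes with reads. With 0 reads in pup 3 but not pup 1 there were 13 genes of the 35, and with 0 reads in pup 1 but not pup 3 there were 2 (Rfng and Sox21). Among the 11409 protein-coding genes with reads, these counts were 3969 and 614, so such gaps were common in these libraries. Of the 41 genes, 6 had 0 reads in both (Dll1, Neurog1, Neurog2, Neurod4, Insm1 and Sox3), against 10052 of 21461 protein-coding genes.

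The share found in both pups was highest among the most abundant genes. All 5 genes at a mean of 50 TPM or more (Id2, Sox11, Tcf4, Hes6 and Id1) were found in both, against 95.6% of protein-coding genes in that range. At 10 to 50 TPM, 2 of 8 were (25.0%), against 53.1%. Mib1 and Sox4 were the genes found in both there, and Notch3, Mfng, Rbpj, Neurod1, Gadd45g and Tcf12 were each found in 1 pup. At 1 to 10 TPM, 4 of 18 were (22.2%), against 15.2%. Those 4 were Notch1, Pax6, Sox2 and Id4. Genes of a single exon, among them Sox11 and Sox2, numbered 8. Of these, 3 were found in both pups, 1 in each pup alone and 3 in neither. Of the 33 genes of several exons 8 were found in both, 13 more in pup 1, 6 more in pup 3 and 6 in neither. Shares by exon number over all protein-coding genes were not computed, so a bearing of exon number on capture was not tested.

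**Figure D4:**
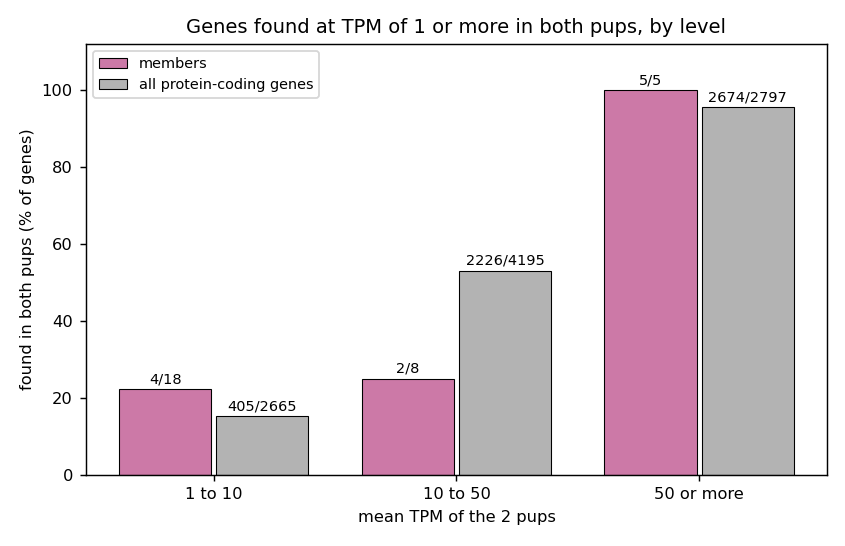
Percentage of genes found at 1 TPM or more in both pups by mean level, for the 41 genes (left bars) and all protein-coding genes (right bars), with the number found in both over the number in the range above each bar. The share is 22.2% against 15.2% at 1 to 10 TPM, 25.0% against 53.1% at 10 to 50 TPM and 100% against 95.6% at 50 TPM or more.

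The rest of the Notch machinery was described from a list of 35 further pathway genes. Of these, 12 were found in both pups, another 11 in pup 1, another 3 in pup 3 and 9 in neither. The share found in both was 34.3%, against 24.7% of all protein-coding genes, and the share found in neither 25.7%, against 53.6%. Highest by mean level was Dtx3, a Deltex-family ubiquitin ligase gene, at 57.6 TPM in pup 1 against 171 TPM in pup 3. Psenen, a subunit of the gamma-secretase that cleaves Notch, was at 134 TPM in pup 1 and lacked reads in pup 3. Snw1, which encodes the RBPJ cofactor SKIP, was at 82.6 TPM in pup 1 against 23.6 TPM in pup 3. Among the 28 with reads, 16 (57.1%) were more than 2-fold higher in pup 1, against 42.8% of protein-coding genes with reads, and 8 (28.6%) in pup 3, against 20%.

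Further pathway genes are named here after their values were seen, because they fill the steps between ligand and target. The receptor-cleaving protease gene Adam10 was at 39.0 TPM in pup 1 against 18.55 TPM in pup 3, while its relative Adam17 was at 31.4 TPM in pup 1 and lacked reads in pup 3. Of the other gamma-secretase genes, Aph1a was at 62.2 TPM in pup 1 against 41.5 TPM in pup 3, and Ncstn at 44.5 TPM in pup 1 against 2.03 TPM in pup 3. Psenen, Aph1a and Ncstn were thus each higher in pup 1. Aph1b was at 14.4 TPM in pup 1 and had 0 reads in pup 3, while Psen2 had 0 reads in both pups. Not every gene of this enzyme is named here. The 3 genes found in pup 3 alone were Mib2, a relative of Mib1 (0.26 TPM in pup 1 against 67.9 TPM in pup 3), the non-canonical ligand gene Dlk2 (0.37 TPM in pup 1 against 68.4 TPM in pup 3) and the coactivator gene Maml1 (0.01 TPM in pup 1 against 26.5 TPM in pup 3).

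**Figure D5:**
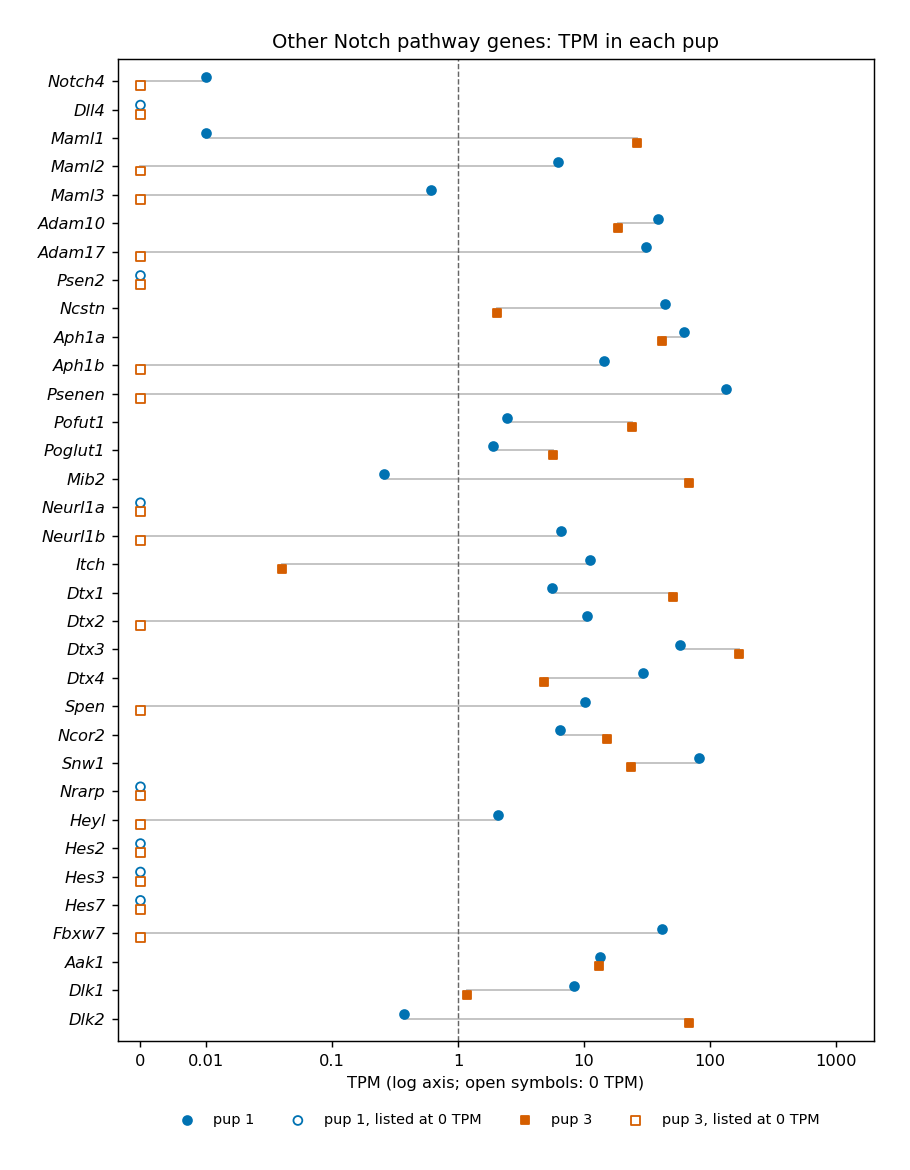
Level of further Notch pathway genes in pup 1 (circles) and pup 3 (squares) in TPM on a log axis; open symbols are genes listed at 0 TPM and the dashed line is 1 TPM. Dtx3, Snw1, Aph1a and Adam10 lie above 10 TPM in both pups, whereas Psenen is at 134 TPM in pup 1 and at 0 in pup 3.

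Relatives of the proneural, Id and Sox genes formed a list of 18. Of these, 5 were found in both pups, another 7 in pup 1, another 3 in pup 3 and 3 in neither. The share found in both was 27.8%, against 24.7% of protein-coding genes, and the share in neither 16.7%, against 53.6%. Neurod6, a bHLH factor of cortical excitatory neurons, was at 272 TPM in pup 1 against 456 TPM in pup 3. The Id family member Id3 was at 353 TPM in pup 1 against 305 TPM in pup 3, closer between pups than Id1, Id2 or Id4. Neurod2, another differentiation factor of excitatory neurons, was at 23.3 TPM in pup 1 against 17.5 TPM in pup 3.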

How the data were processed

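RNA from 2 newborn forebrains was extracted with the mirVana method and taken to libraries with a Smart-seq protocol, per the labels. The authors deposited expected counts, estimated reads per gene or transcript, per the file headers. The deposited TPM runs over all listed features, spike-ins (4.46% of TPM in pup 1 and 7.30% in pup 3) and mitochondrial genes included. The deposited FPKM was used as an alternative scale. For aligner, counter, versions and strand setting, nothing is given in the sources read. A text file beside the tables names assembly mm10 and annotation M4. Gene symbols, biotypes and coordinates were taken from GENCODE M21 (GRCm38) by gene identifier, which matched 42462 of 43346 genes (98.0%).

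The 41 genes and all lists were chosen with earlier results of these data known. Counts, sums, shares and log2((TPM + 1) in pup 1 / (TPM + 1) in pup 3) were computed with Python 3.11.15, pandas 2.3.3, numpy 2.4.6 and scipy 1.17.1, without a test. A gene was found at TPM of 1 or more and called different past 2-fold. No fold is given against 0 reads except as a bound against 3 reads in that library, and with 1 to 3 reads the ratio has an exact 95% binomial interval. The ratio, detection and thinning steps were tested on simulated data with counting error alone. That test does not cover spread from PCR copies. Members at 10 TPM or more in either pup were to be named with both values, the rest with their role group, and the 3 highest of each further list. Some genes of the further lists are not reported here by name. Alternatives were FPKM, CPM, posterior mean TPM, TPM over nuclear genes, thinning to equal depth, other thresholds and pseudocounts, centring, and each pup alone. Marker sums without Fabp7 or Cldn5 were added after the values were seen.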

Additional observations from a re-analysis of the deposited data

How the results depend on the processing

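The count of 11 genes found in both pups was 17 at 3 or more reads and 18 to 25 with each pup alone. The median level of 4.82 TPM was 8.48 as CPM, 8.27 over genes at a mean of 1 TPM or more, and 0.02 to 3.91 with each pup alone. At a mean of 10 TPM or more, 5 genes were past 2-fold in pup 1 and 5 in pup 3, against 16 and 12 without that filter. The median log2 ratio of 0.44 was 0.18 on FPKM, 0.31 on CPM, 0.38 over nuclear genes, 0.45 on posterior mean TPM, 0.56 after centring and 1.20 with a pseudocount of 0.1. Mean sums on FPKM were 22.7 for signal regulators, 9.79 for progenitor genes (15.5 as TPM over nuclear genes), 5.89 for SoxB and 226 for SoxC. Of the 35 further pathway genes, 7 were found in both pups at 5 TPM or more and 15 to 23 with each pup alone, and of the 18 relatives 8 to 12. Over 35 genes and 7 alternatives, 0 log2 ratios changed sign. Jag2 passed 2-fold on CPM and with the smaller pseudocount, and Nr2e1 and Lfng with the smaller pseudocount. The 2797 protein-coding genes at a mean of 50 TPM or more had a median log2 ratio of -0.12 in TPM and -0.31 in CPM. No paired analysis was possible because there is 1 group. For the 6 genes without reads, 3 reads would be at most 0.103 TPM in pup 1 and 0.118 TPM in pup 3.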
